A study of Mus musculus with 36 samples.

Results

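The knockout macrophage course between day 3 and day 5 is 6 of the 36 mouse RNA-seq libraries of the series: 3 of Taf1 knockout (KO) cells at day 5 of macrophage culture and 3 of KO cells at day 3, chosen by their labels. The cells were haematopoietic stem and progenitor cells (HSPCs) from the bone marrow of a conditional Taf1 knockout mouse model. All cells were first grown in 20% horse serum with stem cell factor (SCF) and interleukin 3 (IL-3) for 3 days, which gave the day 3 libraries. Part of the day 3 culture was then moved to granulocyte-macrophage colony-stimulating factor (GM-CSF) and macrophage colony-stimulating factor (M-CSF) for 2 days, which gave the day 5 macrophage libraries, and another part to SCF, IL-3 and G-CSF, which gave the day 5 granulocyte libraries. Each cytokine was used at 50 ng/ml. The groups used here are KO day 5 macrophage, KO day 3, KO day 5 granulocyte, and, labelled wild type and called control here, day 5 macrophage and day 3, with 3 libraries each. The labels give neither the strain, age or sex of the mice, nor how the deletion was induced or which part of the gene it removes, and they do not say that the 3 libraries of a group came from separate mice, so every p-value below measures only the spread between these libraries, which may be technical.

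TFIID, which contains the TATA-binding protein and a set of associated factors of which TAF1 is the largest, binds core promoters and helps to bring RNA polymerase II to them. Macrophages form from bone marrow progenitors when M-CSF acts through its receptor CSF1R and GM-CSF through CSF2RA and CSF2RB. On this path cells lose the stem cell factor receptor KIT and progenitor transcription factors, raise factors such as PU.1 and IRF8, and fill their lysosomes with proteases and lipases.

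The largest rises of the KO course came from the stefin A cluster on chromosome 16, whose genes encode small cytosolic inhibitors of cysteine cathepsins and are expressed in neutrophils and other myeloid cells of the mouse. The share of the TPM held by this cluster also rose in control cells. The 250 bases before the RefSeq start of 5 of these genes are printed because they rose together, and that of Ccl12, a monocyte chemoattractant, because it had the largest rise outside the cluster after a pseudogene. The build is GRCm38.p6 and every sequence runs 5′ to 3′ on the strand of the gene. Capitals in the stefin genes mark the longest run of bases that all 5 share, and in Ccl12 the letters TATAAA.
Gm5483, chr16:36183962-36184211, plus strand: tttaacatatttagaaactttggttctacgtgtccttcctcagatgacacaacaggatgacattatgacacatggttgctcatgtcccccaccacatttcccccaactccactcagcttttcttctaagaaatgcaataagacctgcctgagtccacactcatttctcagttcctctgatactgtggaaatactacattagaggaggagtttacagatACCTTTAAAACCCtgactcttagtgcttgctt
Stfa1, chr16:36276898-36277147, plus strand: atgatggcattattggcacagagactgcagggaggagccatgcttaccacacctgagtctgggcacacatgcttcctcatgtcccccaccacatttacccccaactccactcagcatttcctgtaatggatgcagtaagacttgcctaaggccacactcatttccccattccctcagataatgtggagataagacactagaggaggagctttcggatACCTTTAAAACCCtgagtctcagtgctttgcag
Stfa2, chr16:36408364-36408613, minus strand: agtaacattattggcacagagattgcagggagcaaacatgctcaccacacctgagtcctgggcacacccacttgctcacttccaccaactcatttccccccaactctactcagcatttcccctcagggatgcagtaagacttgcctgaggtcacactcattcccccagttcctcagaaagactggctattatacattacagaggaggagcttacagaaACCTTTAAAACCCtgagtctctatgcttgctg
Stfa2l1, chr16:36156561-36156810, plus strand: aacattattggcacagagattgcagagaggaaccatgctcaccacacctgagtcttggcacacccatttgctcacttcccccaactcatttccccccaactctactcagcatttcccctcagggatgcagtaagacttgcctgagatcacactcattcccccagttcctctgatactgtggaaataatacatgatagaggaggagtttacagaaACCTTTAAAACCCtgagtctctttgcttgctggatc
Stfa3, chr16:36455393-36455642, minus strand: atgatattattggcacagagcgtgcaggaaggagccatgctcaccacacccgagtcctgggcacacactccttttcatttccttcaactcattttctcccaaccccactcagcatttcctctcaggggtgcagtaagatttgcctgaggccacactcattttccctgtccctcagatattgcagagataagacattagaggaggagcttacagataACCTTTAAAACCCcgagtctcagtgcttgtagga
Ccl12, chr11:82101595-82101844, plus strand: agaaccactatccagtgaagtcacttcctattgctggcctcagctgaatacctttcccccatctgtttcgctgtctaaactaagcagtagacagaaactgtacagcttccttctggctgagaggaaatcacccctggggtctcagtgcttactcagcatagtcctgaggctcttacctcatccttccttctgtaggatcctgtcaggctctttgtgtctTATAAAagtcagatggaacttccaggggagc

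The shared run ACCTTTAAAACCC has 13 bases and began between 32 and 36 bases before the start in the 5 stefin genes. Searched on both strands, it occurred in 8 of the 32851 mouse promoters of this length in the RefSeq table (0.0244%), and all 8 belong to the stefin and cystatin relatives Csta3, Cstdc3, Gm5483, Gm7260, Stfa1, Stfa2, Stfa2l1 and Stfa3. Identity over these windows was 89.4% between Stfa2 and Stfa2l1, 80.2% to 83.1% between the other pairs of Stfa genes, and 67.3% to 72% between Gm5483 and the Stfa genes. The letters TATAAA occurred in none of the 5 stefin windows and began 31 bases before the start in Ccl12. They occurred in 9.24% of the 1050 windows of genes that rose in the KO course, in 5.94% of the 5421 windows of genes that fell and in 12.4% of all windows. The letters TTNNGNAA, a form of the C/EBP motif, occurred in Gm5483, Stfa1, Stfa2 and Stfa2l1, and in 32.8% of windows of genes that rose, 28.6% of windows of genes that fell and 36.8% of all windows. The letters GAGGAAG, a form of the PU.1 motif, occurred in Gm5483 and Stfa1, and in 15.6%, 10.3% and 10.6% of the same sets. The set of all windows includes genes that were not tested here, so it is no baseline for the genes that rose or fell. A match is a description of the letters only.

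Values are TPM, a relative abundance that already accounts for transcript length, and the read depth behind them is unknown. A gene is said to rise or fall when limma, fitted to log2(TPM + 1) over all 24 libraries of the macrophage table, gave an adjusted p under 0.05 over the 11953 genes tested. Fold changes are on that scale, given as log2 change ± SE with n = 3 libraries a group, and understate the change of low genes. Replicate 1 stood apart in both KO groups. Its correlation with the other libraries across genes was 0.987 and 0.987 at KO day 5 macrophage, where the other 2 reached 0.996, and 0.991 and 0.992 at KO day 3, where the other 2 reached 0.997. Control replicate 1 stood apart likewise. Genes with at least 1 TPM numbered 10289 to 10428 in the KO day 5 macrophage libraries and 10737 to 10781 in the KO day 3 libraries.

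Taf1 itself had 6.15, 6.23 and 5.94 TPM in KO day 5 macrophage libraries, against 8.66, 10.3 and 9.06 TPM in KO day 3 libraries. Control libraries had 12.6, 12.99 and 13.8 TPM at day 5 of macrophage culture and 9.62, 10.9 and 11.4 TPM at day 3. The KO day 5 macrophage libraries thus lay below both KO day 3 and every control library, while 1 KO day 3 value lay within the control day 3 range. The log2 change in the KO course was -0.54 ± 0.08 (limma, adjusted p = 2.1e-05) in the TPM as deposited. The factors of the rescaling described below were 0.809 to 0.827 in KO day 5 macrophage libraries and 0.970 to 1.08 in KO day 3 libraries. Dividing by them makes the fall of Taf1 smaller. Transcript remained in every KO library, and without knowing which exons are deleted these values do not measure functional Taf1.

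Over all genes the KO course went down far more than up in the TPM as deposited: 1038 of the 11953 genes tested rose (8.68%) and 5623 fell (47%), with a median log2 change of -0.27. Every library's TPM add up to the same sum, so a gain in a few very abundant transcripts can lower the others. How much of the falls came from this was not tested. When each library was rescaled by the median of its gene ratios, the median change became 0.01, and 2832 genes rose (23.7%) against 2254 that fell (18.9%). The share of rises among the calls was 15.6% as deposited and 55.7% after this scaling. All 1038 rises remained rises after scaling, and all 2254 falls after scaling were among the 5623. Each group of genes below is therefore given with both counts, beside these 2 medians over all genes tested. The KO day 5 macrophage and KO day 3 libraries did not overlap in 1481 genes (12.4%) that were higher at day 5 and in 7077 (59.2%) that were lower. With S100a8, S100a9, histone genes, Rpph1 and Rmrp left out and the rest brought back to the same sum, 1415 genes rose and 5003 fell. With the stefin genes left out too, 1693 rose and 3990 fell. Leaving out replicate 1 of both KO groups left 959 rises and 5274 falls. With the replicate number as a block, on the assumption that the numbers pair the libraries, the counts were 1447 and 6806.

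A few transcripts held much of the TPM. S100a8 and S100a9, the subunits of calprotectin and the most abundant cytosolic proteins of neutrophils, took 17.8%, 23.4% and 23.4% of the TPM in the KO day 5 macrophage libraries, against 13.5%, 12.9% and 12.1% in the KO day 3 libraries. The groups did not overlap, with means of 21.5% ± 3.22 at KO day 5 macrophage and 12.8% ± 0.68 at KO day 3 (SD, n = 3 each). No exact permutation test of 3 against 3 libraries can go below p = 0.10. In the limma fit neither gene passed, with log2 changes of 0.84 ± 0.46 (adjusted p = 0.12) for S100a8 and 0.61 ± 0.51 (adjusted p = 0.31) for S100a9. The 10 genes of the stefin interval, at chr16:36156811-36455392, took 2.77%, 3.97% and 3.59% at KO day 5 macrophage and 0.0502%, 0.0494% and 0.0415% at KO day 3. Control libraries gave the stefin genes 0.187%, 1.70% and 1.68% at day 5 macrophage and 0.00566%, 0.00953% and 0.00825% at day 3. They gave S100a8 with S100a9 4.93%, 14.5% and 14.2% at day 5 macrophage and 7.96%, 6.58% and 6.61% at day 3, with overlap. Among the losses, the 75 cytosolic ribosomal protein genes took 7.93% ± 0.849 at KO day 5 macrophage and 12.03% ± 0.505 at KO day 3, and 68 histone genes took 7.08% ± 0.471 at KO day 5 macrophage and 9.11% ± 0.907 at KO day 3. Rpph1 and Rmrp, the RNAs of RNase P and RNase MRP, took 7.26% ± 1.49 at KO day 5 macrophage and 9.93% ± 1.06 at KO day 3.

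**Figure D1:**
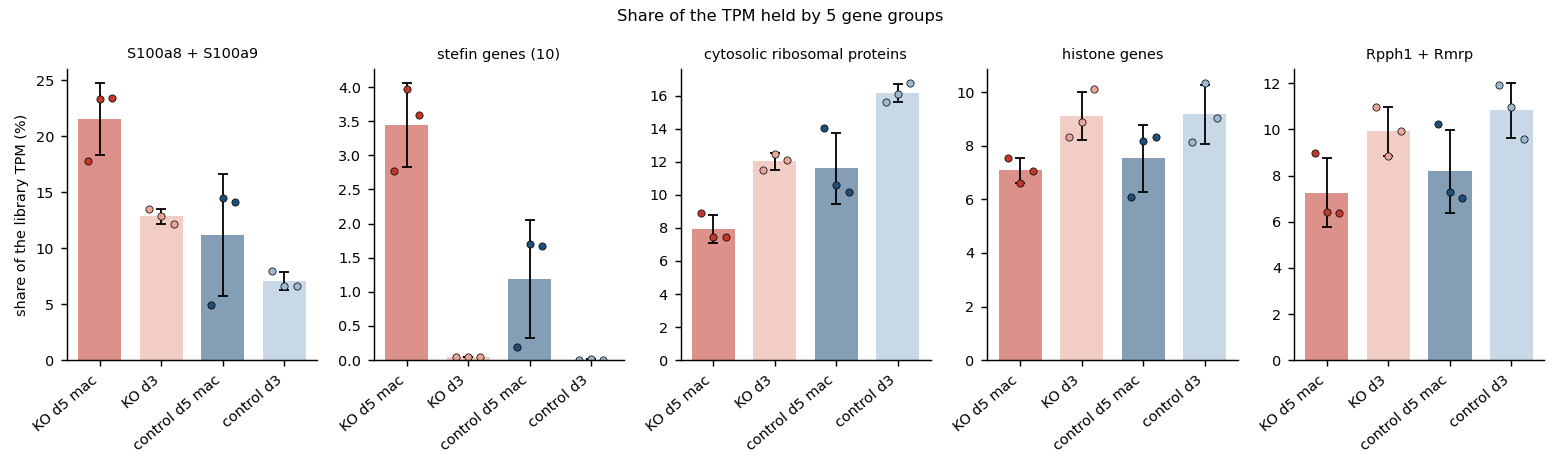
Share of all TPM (y axis, percent) held by 5 groups of abundant transcripts, with points for libraries, bars for the mean of 3 libraries and error bars for the SD. S100a8 with S100a9 held 21.5% at KO day 5 macrophage against 12.8% at KO day 3, while cytosolic ribosomal protein genes held 7.93% against 12.03%.

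The 10 largest rises among genes with at least 5 TPM and groups that did not overlap were 8 genes of the stefin interval, the pseudogene Oaz1-ps and Ccl12. BC100530, a gene of the interval, had 8616, 12538 and 10860 TPM in KO day 5 macrophage libraries, against 92.1, 112 and 82.3 TPM in KO day 3 libraries. Its log2 change was 6.78 ± 0.63 (limma, adjusted p = 9.8e-08). Gm5483, named Cstdc4 in RefSeq, had 9916, 14103 and 12899 TPM in KO day 5 macrophage libraries, against 193, 172 and 146 TPM in KO day 3 libraries, a log2 change of 6.16 ± 0.57. 2010005H15Rik, named Csta2 in RefSeq, had 505, 616 and 558 TPM in KO day 5 macrophage libraries, against 5.49, 5.16 and 4.43 TPM in KO day 3 libraries, a log2 change of 6.54 ± 0.39. In all 3 genes every day 5 macrophage library lay far above every day 3 library, and 2010005H15Rik had by far the lowest day 3 level of them. Stfa1, Stfa2, Stfa3, Stfa2l1 and BC117090 rose by log2 changes of 6.11, 5.68, 5.66, 5.35 and 3.702. The genes of this family are so alike that reads could be split between them, so the value of each single gene is uncertain. 2010005H15Rik was also higher at KO day 5 macrophage than at KO day 5 granulocyte (log2 difference 1.65 ± 0.45, adjusted p = 0.015, limma), and for the other 7 genes the difference lay between -0.26 and 0.46 and did not pass.

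Oaz1-ps, a processed pseudogene of ornithine decarboxylase antizyme, had 38.6, 17.1 and 21.6 TPM in KO day 5 macrophage libraries, against 0, 0 and 0.02 TPM in KO day 3 libraries. With 2 of 3 day 3 libraries listed at 0 no fold is given; the rise passed (limma, adjusted p = 0.018), but not without KO day 5 macrophage replicate 1 (0.0519), and its reads cannot be told apart here from those of the parent gene. Ccl12 had 112, 137 and 153 TPM in KO day 5 macrophage libraries, against 10.02, 2.45 and 4.65 TPM in KO day 3 libraries, a log2 change of 4.49 ± 0.47 (limma, adjusted p = 4.5e-07).

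**Figure D2:**
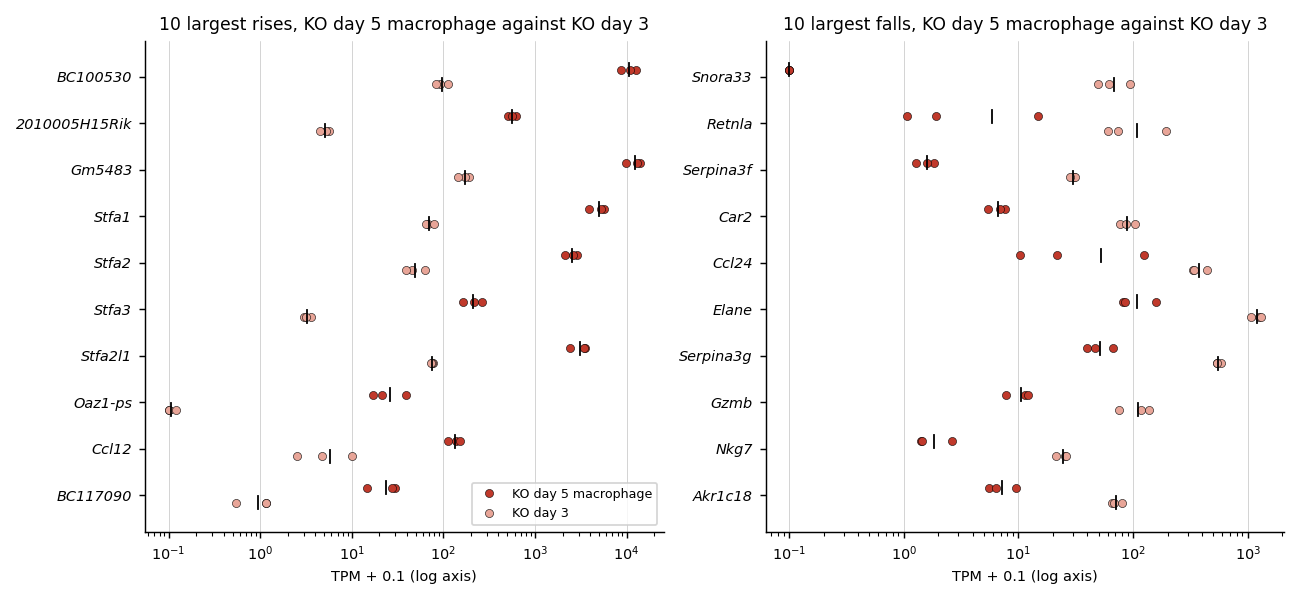
TPM + 0.1 on a log axis for the 10 largest rises and 10 largest falls of the KO course, with a point per library and a line at the mean of 3 libraries, KO day 5 macrophage above KO day 3. The 20 genes were chosen only among genes whose libraries of the 2 times do not overlap.

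The 10 largest falls, chosen by the same rule of at least 5 TPM and no overlap, were of 1 small nucleolar RNA, Snora33, and of genes for secreted proteins, serpins, granule proteins and enzymes. Retnla, a secreted resistin-like protein of alternatively activated macrophages and eosinophils, had 14.7, 0.97 and 1.83 TPM in KO day 5 macrophage libraries, against 193, 59.9 and 73.8 TPM in KO day 3 libraries, a log2 change of -4.43 ± 0.53 (limma, adjusted p = 2.2e-06). Ccl24, an eosinophil chemoattractant, had 125, 10.3 and 21.8 TPM in KO day 5 macrophage libraries, against 443, 336 and 343 TPM in KO day 3 libraries, a log2 change of -3.54 ± 0.49 (adjusted p = 1.1e-05). Replicate 1 kept more of both transcripts than the other KO day 5 macrophage libraries, and, as the rule requires, no day 5 value reached a day 3 value. Elane, neutrophil elastase of primary granules, had 158, 81.4 and 85.5 TPM in KO day 5 macrophage libraries, against 1065, 1249 and 1301 TPM in KO day 3 libraries, and fell by 3.53 on the log2 scale. Serpina3g, a serine protease inhibitor of haematopoietic cells, had 67.2, 39.2 and 46.5 TPM in KO day 5 macrophage libraries, against 537, 584 and 542 TPM in KO day 3 libraries, and its neighbour in the same gene family Serpina3f had 1.74, 1.19 and 1.51 TPM in KO day 5 macrophage libraries, against 30.3, 30.9 and 27.9 TPM in KO day 3 libraries. Both serpins were low in all day 5 macrophage libraries, with log2 changes of -3.45 ± 0.21 and -3.64 ± 0.21. Gzmb (the protease granzyme B), Nkg7 (a membrane protein of cytotoxic granules), Car2 (a carbonic anhydrase of erythroid and other cells) and Akr1c18 (an aldo-keto reductase) had log2 changes between -3.58 and -3.19. Snora33, a small nucleolar RNA, was listed at 0 in all 3 KO day 5 macrophage libraries and had 61.03, 49.5 and 94.6 TPM in KO day 3 libraries; no fold is given against a group at 0. It was also listed at 0 in all control day 3 libraries, and the adjusted p was 0.0092.

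Genes that mark macrophages mostly rose, yet several that define mature or resident macrophages stayed near 0. Of the 27 macrophage genes tested, 19 rose and 3 fell, with a median log2 change of 0.82, and after scaling 21 rose and 1 fell (median 1.16). Msr1, the scavenger receptor A, had 23.4, 36.7 and 33.4 TPM in KO day 5 macrophage libraries, against 2.32, 1.76 and 1.49 TPM in KO day 3 libraries, a log2 change of 3.48 ± 0.21 (limma, adjusted p = 2.4e-10). Adgre1, which encodes the F4/80 antigen, had 44.8, 44.5 and 46.6 TPM in KO day 5 macrophage libraries, against 27.4, 19.2 and 19.7 TPM in KO day 3 libraries, a log2 change of 1.02 ± 0.15 (adjusted p = 2.8e-05). Cd68, a lysosomal membrane protein of phagocytes, had 197, 152 and 149.98 TPM in KO day 5 macrophage libraries, against 102, 59.8 and 54.1 TPM in KO day 3 libraries, a log2 change of 1.25 ± 0.20. In all 3 genes the lowest day 5 macrophage value was above the highest day 3 value. Fcgr1, the high-affinity IgG receptor, had 4.03, 7.96 and 6.89 TPM in KO day 5 macrophage libraries, against 1.71, 2.32 and 1.87 TPM in KO day 3 libraries, Clec4n, the C-type lectin dectin-2, rose by 1.84 and Ctsk, the protease cathepsin K, by 1.58 on the log2 scale. Itgam, the integrin chain CD11b, had 166, 265 and 259 TPM in KO day 5 macrophage libraries, against 152, 131 and 128 TPM in KO day 3 libraries, a log2 change of 0.72 ± 0.22 (adjusted p = 0.0096), and without KO day 5 macrophage replicate 2 its change was 0.60 with adjusted p = 0.0513. Mrc1, the mannose receptor, had 143, 89.1 and 105 TPM in KO day 5 macrophage libraries, against 93.8, 53.7 and 51.3 TPM in KO day 3 libraries, a log2 change of 0.78 ± 0.26 (adjusted p = 0.015); the groups overlapped, and adjusted p was 0.0797 without KO day 5 macrophage replicate 1 and 0.0709 and 0.0776 without KO day 3 replicates 2 and 3.

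Other genes that define macrophages fell or stayed low in the KO course, and the label macrophage stands here for the cytokine course. C1qb, a chain of complement C1q, fell and had 1.22, 0.89 and 1.36 TPM in KO day 5 macrophage libraries, against 8.26, 4.62 and 4.68 TPM in KO day 3 libraries. Chosen after their values were seen, C1qa, another chain of complement C1q, had 0.19, 0.11 and 0.09 TPM in KO day 5 macrophage libraries, against 0.35, 0.06 and 0.56 TPM in KO day 3 libraries, Marco, a scavenger receptor, had 0.05, 0.2 and 0.2 TPM in KO day 5 macrophage libraries, against 0.02, 0 and 0 TPM in KO day 3 libraries, and Siglec1, a sialic acid receptor of resident macrophages, had 0.43, 0.28 and 0.29 TPM in KO day 5 macrophage libraries, against 0.07, 0.03 and 0.03 TPM in KO day 3 libraries. All of these were low at both times, though Marco and Siglec1 were higher in every day 5 macrophage library than in any day 3 library. Timd4, a receptor of resident macrophages, was listed at 0 in every KO day 5 macrophage library and every KO day 3 library. Timd4 was listed at 0 in every control day 5 macrophage library too. Control values of C1qb, C1qa, Marco and Siglec1 are not given here, so their low levels are not shown to be particular to KO cells. The summed level of the 30 macrophage genes was 5774 to 9808 TPM at KO day 5 macrophage and 3603 to 3740 TPM at KO day 3. The 18 secondary granule genes summed to 35835 to 44146 TPM at KO day 5 macrophage and 23847 to 38944 TPM at KO day 3. Both lists hold Lyz2, with means of 4778 TPM at KO day 5 macrophage and 1940 TPM at KO day 3. These sums therefore do not measure separate cell types. Summed over its list, the other cell types gave 365 to 701 TPM at KO day 5 macrophage against 275 to 395 TPM at KO day 3 for dendritic cells, 666 to 881 TPM at KO day 5 macrophage against 1507 to 1694 TPM at KO day 3 for mast cells and basophils, and 983 to 1297 TPM at KO day 5 macrophage against 1006 to 1196 TPM at KO day 3 for eosinophils. Megakaryocyte genes summed to 324 to 776 TPM at KO day 5 macrophage against 320 to 683 TPM at KO day 3, erythroid genes to 135 to 161 against 307 to 398 TPM, and lymphoid genes to 16.9 to 20.8 against 90.5 to 152 TPM, with Cd3e, Pax5, Ebf1 and Rag1 listed at 0 in all 6 libraries. In bulk RNA, fewer cells of a type and less RNA per cell cannot be told apart, and the part of other cell types in the results below was not tested.

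Lysosomal enzymes and cathepsins went up with the macrophage genes. Of 30 lysosome genes, 16 rose and 4 fell (median 0.42), and after scaling 22 rose and 2 fell. Lgmn, an asparaginyl endopeptidase, had 61.4, 54.4 and 62.8 TPM in KO day 5 macrophage libraries, against 28.9, 13 and 18.9 TPM in KO day 3 libraries, a log2 change of 1.58 ± 0.24 (limma, adjusted p = 3.5e-05). Atp6v0d2, a subunit of the vacuolar proton pump, and Lipa, the acid lipase, rose by 1.46 and 1.27 on the log2 scale. Of 14 cathepsins, 9 rose and 3 fell (median 0.65), and after scaling 10 rose and 1 fell. Ctsl had 563, 438 and 491 TPM in KO day 5 macrophage libraries, against 144, 69.4 and 79 TPM in KO day 3 libraries, a log2 change of 2.41 ± 0.21 (adjusted p = 4.5e-08), with no overlap between the groups. Ctsb rose by 1.63, and the largest fall was of Ctsg, cathepsin G of neutrophil primary granules, at -2.38.

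Genes of lipid handling rose as a group. Of 18 genes associated with lipid-laden macrophages, 13 rose and 1 fell (median 1.03), and after scaling 13 rose and 0 fell. Gpnmb, a glycoprotein of lysosome-rich macrophages, had 253, 510.01 and 505 TPM in KO day 5 macrophage libraries, against 51.5, 39.01 and 50.98 TPM in KO day 3 libraries, a log2 change of 3.08 ± 0.26 (limma, adjusted p = 3.0e-08). Spp1, osteopontin, had 801, 1402 and 1190.5 TPM in KO day 5 macrophage libraries, against 158, 122 and 117 TPM in KO day 3 libraries, a log2 change of 3.06 ± 0.24 (adjusted p = 1.1e-08). Replicate 1 was the lowest KO day 5 macrophage library for both, and still above every day 3 library. Cd36, a fatty acid and scavenger receptor, rose by 2.62 and Lpl, lipoprotein lipase, by 2.61. Of 13 iron and metallothionein genes, 4 rose and 3 fell, with 6 and 0 after scaling and 4 and 5 with the replicate block. Both ferritin chains, which store iron, rose. Fth1 had 1153, 2369 and 2164 TPM in KO day 5 macrophage libraries, against 610.1, 561 and 528 TPM in KO day 3 libraries, a log2 change of 1.68 ± 0.25. Ftl1 had 22135, 24075 and 24524 TPM in KO day 5 macrophage libraries, against 15176, 10789 and 11321 TPM in KO day 3 libraries, a log2 change of 0.94 ± 0.17 (adjusted p = 0.00013, and 0.0504 with the replicate block). Slc11a1, the phagosomal metal transporter, rose by 1.59.

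Of 14 monocyte recruitment genes, 7 rose and 3 fell (median 0.62), and after scaling 7 rose and 2 fell. The chemokine genes Ccl2, Ccl7 and Ccl12 were among those that rose. Ccl2, Ccl7 and Ccl12 are neighbours on chromosome 11, at 82035571 to 82037453, 82045712 to 82047525 and 82101845 to 82103400 in the GENCODE M21 annotation of GRCm38, and their products attract monocytes through CCR2. Ccl2 had 1026, 1484 and 1412 TPM in KO day 5 macrophage libraries, against 173, 95.3 and 119 TPM in KO day 3 libraries, a log2 change of 3.36 ± 0.26 (limma, adjusted p = 1.1e-08). Ccl7 had 263, 378 and 384 TPM in KO day 5 macrophage libraries, against 46.02, 23.4 and 32.4 TPM in KO day 3 libraries, a log2 change of 3.32 ± 0.35 (adjusted p = 4.6e-07). In all 3 chemokines, Ccl12 included, replicate 1 was the lowest of the day 5 macrophage libraries and the highest of the day 3 libraries, and the groups did not overlap. F13a1, coagulation factor XIII A, fell by 2.73 on the log2 scale, while Ly6c2 had 505, 820.4 and 789.7 TPM in KO day 5 macrophage libraries, against 842, 897 and 868 TPM in KO day 3 libraries and did not pass (adjusted p = 0.43). Of 18 inflammatory cytokine genes, 6 rose and 3 fell, with 8 and 2 after scaling and 8 and 5 with the block. Cxcl2 had 57.2, 55.7 and 51.6 TPM in KO day 5 macrophage libraries, against 6.23, 4.36 and 4.92 TPM in KO day 3 libraries, a log2 change of 3.19 ± 0.57, and Cxcl3 rose by 3.03; both attract neutrophils. Tnf had 26.7, 66.4 and 57.8 TPM in KO day 5 macrophage libraries, against 17.96, 18.2 and 18.1 TPM in KO day 3 libraries, a log2 change of 1.33 ± 0.28. Il6 went the other way, with 7.83, 4.06 and 5.11 TPM in KO day 5 macrophage libraries, against 37.7, 39.6 and 41.3 TPM in KO day 3 libraries, a log2 change of -2.64 ± 0.40 (adjusted p = 3.0e-05).

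Receptors for microbial products rose more often than they fell. Of 15 genes of Toll-like receptors and their partners, 9 rose and 0 fell, and after scaling 12 rose and 0 fell. Tlr13, which senses bacterial ribosomal RNA in the mouse, rose by 1.71, Tlr2 by 1.36, Tlr8 by 0.89 and Ly96, the partner of TLR4, by 0.802. Of 14 C-type lectins, 7 rose and 3 fell, with 7 and 1 after scaling and 6 and 5 with the block. Clec4d had 31.4, 75.2 and 70.2 TPM in KO day 5 macrophage libraries, against 9.92, 10.3 and 10.4 TPM in KO day 3 libraries, a log2 change of 2.32 ± 0.27 (limma, adjusted p = 1.3e-06), with replicate 1 lowest at day 5 and no overlap. Of 8 Fc receptor genes, 2 rose and 2 fell, with 5 and 1 after scaling and 5 and 2 with the block. Of 17 integrin and adhesion genes, 4 rose, among them Itgb2 by 0.91, and 6 fell, among them the platelet integrin chain Itgb3 by 1.46 and Pecam1 by 1.101 on the log2 scale. After scaling the counts were 8 and 5.

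The receptors of the cytokines supplied did not all follow the change of medium. Of 11 cytokine receptors, 0 rose and 7 fell (median -0.67), and after scaling 2 rose and 6 fell. Kit, the SCF receptor, had 2.74, 4.51 and 4.73 TPM in KO day 5 macrophage libraries, against 7.31, 11.8 and 9.86 TPM in KO day 3 libraries, a log2 change of -1.095 ± 0.18 (limma, adjusted p = 7.6e-05). Il3ra, the IL-3 receptor alpha chain, had 7.98, 6.49 and 5.72 TPM in KO day 5 macrophage libraries, against 14.1, 13.5 and 12.5 TPM in KO day 3 libraries, a log2 change of -0.902 ± 0.23 (adjusted p = 0.0025). Kit and Il3ra were thus lower in every day 5 macrophage library than in any day 3 library. Csf1r, the M-CSF receptor, had 30.03, 34.9 and 35.5 TPM in KO day 5 macrophage libraries, against 30.1, 26.3 and 27.3 TPM in KO day 3 libraries, and its log2 change of 0.25 ± 0.11 did not pass (adjusted p = 0.058); the groups overlapped by 1 day 3 library, and the change passed after scaling (0.58 ± 0.13, adjusted p = 0.0013), without KO day 5 macrophage replicate 1 (adjusted p = 0.0297), without KO day 3 replicate 1 (0.0412) and without both (0.0225). Csf2ra, the GM-CSF receptor alpha chain, had 25.8, 24.99 and 25.1 TPM in KO day 5 macrophage libraries, against 24.6, 17.4 and 18.7 TPM in KO day 3 libraries, with a log2 change of 0.32 ± 0.19 (adjusted p = 0.14) and of 0.65 ± 0.20 after scaling (0.012). The change passed also with the replicate block (adjusted p = 0.032). Csf2rb, the beta chain that IL-3 and GM-CSF share, had 164, 210.04 and 227 TPM in KO day 5 macrophage libraries, against 174, 182 and 209.5 TPM in KO day 3 libraries, with overlap and a log2 change of 0.076 ± 0.25 (adjusted p = 0.81), and -0.021 without KO day 5 macrophage replicate 3. Csf3r, the G-CSF receptor, and Flt3 fell by 1.03 and 1.35 on the log2 scale.

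Transcription factors of macrophages rose while those of progenitors fell. Of 24 macrophage transcription factors, 14 rose and 2 fell (median 0.33), with 17 and 1 after scaling and 17 and 4 with the block. Irf8, needed for monocyte formation, had 18.6, 23.8 and 19.7 TPM in KO day 5 macrophage libraries, against 9.23, 11.9 and 10.98 TPM in KO day 3 libraries, a log2 change of 0.89 ± 0.11 (limma, adjusted p = 5.1e-06). The groups did not overlap. Spi1, which encodes PU.1, was abundant throughout, with 209, 225 and 241 TPM in KO day 5 macrophage libraries, against 173, 176 and 197 TPM in KO day 3 libraries; its log2 change of 0.305 ± 0.09 (adjusted p = 0.0093) was 0.26 with adjusted p = 0.0513 without KO day 5 macrophage replicate 3. Klf4 had 14.3, 9.17 and 10.1 TPM in KO day 5 macrophage libraries, against 4.69, 4.35 and 4.83 TPM in KO day 3 libraries, a log2 change of 1.09 ± 0.32 (adjusted p = 0.0079), and 0.92 with adjusted p = 0.063 without replicate 1 of both groups. The lipid-sensing receptors Nr1h3 and Pparg rose by 1.501 and 1.09, and Irf7, a factor of interferon responses, fell by 1.19. Cebpa, which drives the step to granulocyte and monocyte progenitors, fell and had 29.4, 23.1 and 26.03 TPM in KO day 5 macrophage libraries, against 62.3, 79.04 and 79.7 TPM in KO day 3 libraries, a log2 change of -1.46 ± 0.11 (adjusted p = 5.9e-09), while Cebpb had 109, 71.2 and 76.8 TPM in KO day 5 macrophage libraries, against 78.97, 55.7 and 58.4 TPM in KO day 3 libraries, did not pass as deposited (0.400 ± 0.23, adjusted p = 0.14), and passed after scaling (adjusted p = 0.023) and with the block (0.0029).

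**Figure D3:**
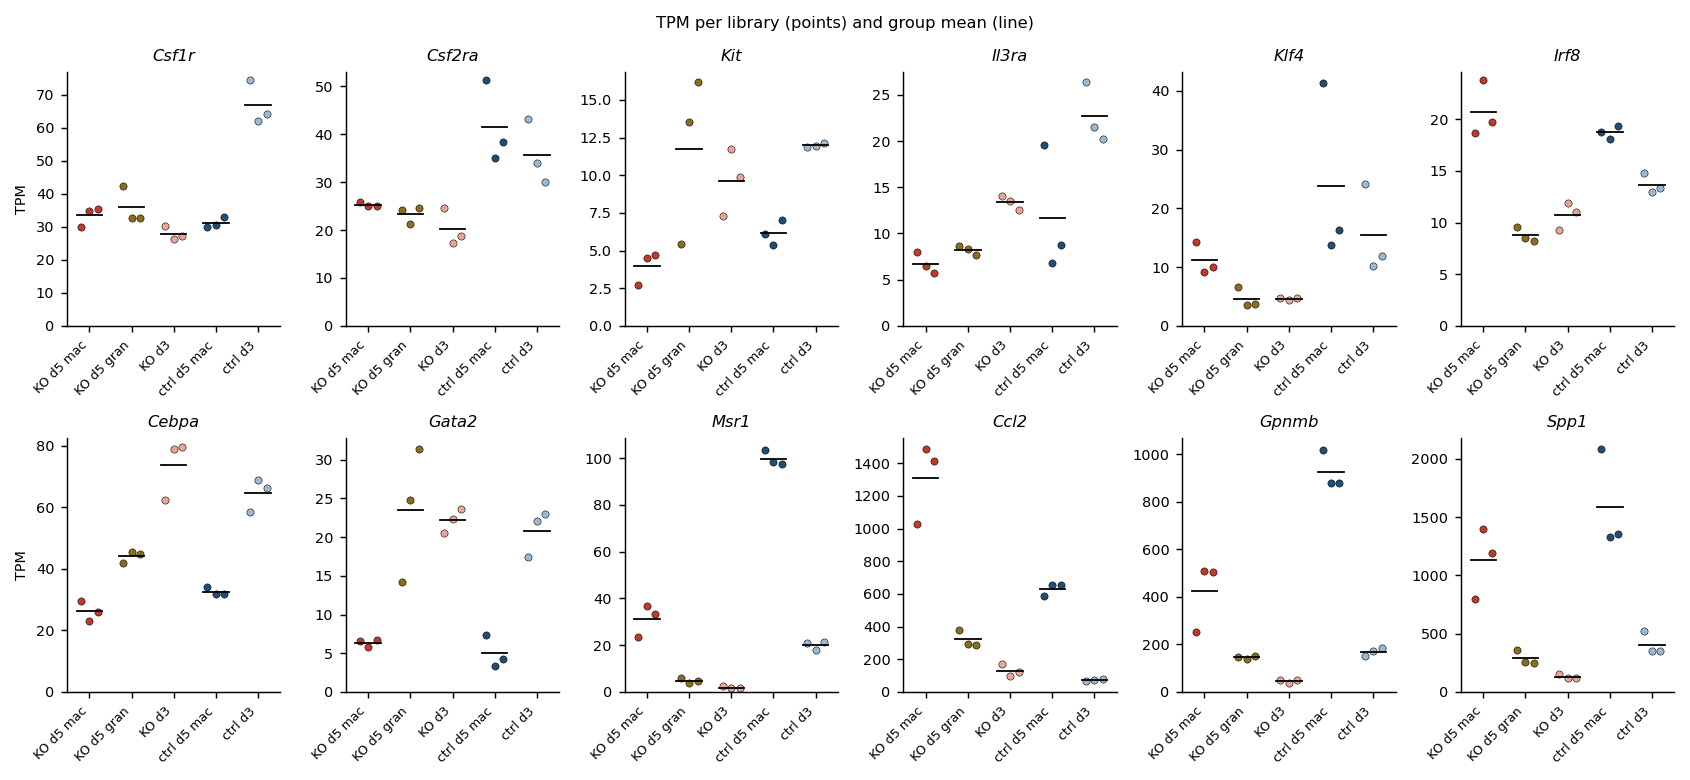
TPM (y axis, linear from 0) of 12 receptor, transcription factor and effector genes in KO day 5 macrophage, KO day 5 granulocyte, KO day 3, control day 5 macrophage and control day 3 libraries, with a point per library and a line at the mean. Kit, Gata2 and Cebpa are lower, and Klf4, Irf8 and Msr1 higher, in every KO day 5 macrophage library than in any KO day 3 library.

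Of 23 progenitor transcription factors tested, 0 rose and 22 fell (median -0.996), and after scaling 0 rose and 18 fell (median -0.78). Gata2, of stem, mast and basophil cells, had 6.61, 5.79 and 6.65 TPM in KO day 5 macrophage libraries, against 20.5, 22.4 and 23.6 TPM in KO day 3 libraries, a log2 change of -1.66 ± 0.28 (limma, adjusted p = 9.2e-05). Myb had 21.7, 18.2 and 19.4 TPM in KO day 5 macrophage libraries, against 63.7, 87.8 and 86.8 TPM in KO day 3 libraries, a log2 change of -1.94 ± 0.31 (adjusted p = 5.0e-05). Both lay far below every day 3 value in all day 5 macrophage libraries. Mycn and Gfi1 fell by 2.12 and 1.91 on the log2 scale. Myc had 75.2, 53.6 and 56.1 TPM in KO day 5 macrophage libraries, against 83.7, 99.7 and 103 TPM in KO day 3 libraries and fell as deposited (-0.63 ± 0.15, adjusted p = 0.0019) but did not pass after scaling (adjusted p = 0.1). Of 19 surface and other progenitor genes, 1 rose and 13 fell, and after scaling 3 rose and 12 fell. Cd34 had 33.3, 26.3 and 22.2 TPM in KO day 5 macrophage libraries, against 89.99, 116 and 93.99 TPM in KO day 3 libraries, a log2 change of -1.84 ± 0.17 (adjusted p = 1.2e-07). Muc13, Angpt1 and Egfl7 fell by 2.39, 2.099 and 1.91. The exception was Procr, the endothelial protein C receptor that also marks stem cells, with 8, 15.8 and 16.5 TPM in KO day 5 macrophage libraries, against 2.98, 1.69 and 1.55 TPM in KO day 3 libraries, a log2 change of 2.200 ± 0.31 (adjusted p = 1.5e-05).

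Primary granule genes fell and secondary granule genes did not move together. Of 11 primary granule genes, 1 rose and 9 fell (median -1.74), and after scaling 1 rose and 7 fell. Mpo, myeloperoxidase, had 302, 182 and 202 TPM in KO day 5 macrophage libraries, against 1018, 1159 and 1201 TPM in KO day 3 libraries, a log2 change of -2.33 ± 0.43 (limma, adjusted p = 0.0002). Ctsg and Cst7 fell by 2.38 and 2.44 on the log2 scale. Of 18 secondary and later granule genes, 4 rose and 3 fell (median 0.064), with 4 and 1 after scaling and 8 and 5 with the block. Mmp8, neutrophil collagenase, had 323, 1029 and 934 TPM in KO day 5 macrophage libraries, against 86.4, 144 and 132 TPM in KO day 3 libraries, a log2 change of 2.51 ± 0.37 (adjusted p = 2.4e-05), while Fcnb, ficolin B, fell and had 18.4, 12.7 and 13.9 TPM in KO day 5 macrophage libraries, against 51.3, 106 and 98.4 TPM in KO day 3 libraries. Camp, cathelicidin, had 172, 91.8 and 87.7 TPM in KO day 5 macrophage libraries, against 424, 436 and 373 TPM in KO day 3 libraries, and its fall (-1.87 ± 0.76, adjusted p = 0.042) did not pass after scaling (0.13) or without any 1 of KO day 5 macrophage replicates 2 (adjusted p = 0.105) and 3 (0.111) and KO day 3 replicates 1 (0.078), 2 (0.0947) and 3 (0.0734). Cybb and Cyba, the membrane subunits of the phagocyte NADPH oxidase, rose by 1.01 and 0.71. Among S100 genes, S100a6 and S100a4 rose by 1.95 and 1.47 and S100a10 by 1.004.

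Genes of other lineages did not move as 1 group, and their counts are read beside the 47% of all genes that fell as deposited and the 18.9% that fell after scaling. Of 10 eosinophil genes, 1 rose and 2 fell (median -0.043), with 3 and 0 after scaling. Of 13 dendritic cell genes, 3 rose and 3 fell (median 0.039), with 4 and 2 after scaling. Of 17 mast cell and basophil genes tested, 2 rose and 9 fell (median -1.08), with 4 and 6 after scaling and 4 and 10 with the block. Il4 had 4.28, 3.89 and 5.98 TPM in KO day 5 macrophage libraries, against 58.8, 36.6 and 39.95 TPM in KO day 3 libraries, a log2 change of -2.999 ± 0.18 (limma, adjusted p = 2.4e-10). Il13 had 1.29, 0.74 and 1.25 TPM in KO day 5 macrophage libraries, against 20.1, 14.6 and 15.4 TPM in KO day 3 libraries, a log2 change of -3.08 ± 0.12 (adjusted p = 3.7e-13). No day 5 macrophage library came near the day 3 values of either cytokine. Hdc, which makes histamine, fell by 2.79 and Il1rl1, the IL-33 receptor, by 1.804 on the log2 scale. Of 18 erythroid genes, 0 rose and 10 fell, with 0 and 9 after scaling. Car2 had 7.51, 5.34 and 6.8 TPM in KO day 5 macrophage libraries, against 77.6, 104 and 86.4 TPM in KO day 3 libraries; Hbb-bt, a beta globin whose reads may be split with its near copy, had 1.79, 1.46 and 1.22 TPM in KO day 5 macrophage libraries, against 17.5, 14.7 and 15.3 TPM in KO day 3 libraries. Of 17 megakaryocyte genes, 0 rose and 7 fell, with 2 and 5 after scaling and 2 and 10 with the block. Rab27b, of granule docking, and Itga2b, the platelet integrin alpha chain, fell by 1.376 and 1.05.

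S phase genes fell in the TPM as deposited, and fewer did after scaling. Of 38 S phase genes, 0 rose and 33 fell (median -0.53), and after scaling 1 rose and 14 fell (median -0.21). Mcm6, a subunit of the replicative helicase, had 129.9, 121 and 121 TPM in KO day 5 macrophage libraries, against 218, 252 and 235 TPM in KO day 3 libraries, a log2 change of -0.91 ± 0.12 (limma, adjusted p = 4.8e-06). Pole2 and Pold1, polymerase subunits, fell by 1.04 and 0.84 on the log2 scale. Of 34 mitosis genes, 0 rose and 18 fell (median -0.31), with 1 and 2 after scaling and 0 and 29 with the block; as deposited their share of falls and their median lay near those of all genes (47% and -0.27). Mki67, a proliferation antigen, had 70.6, 76.7 and 89.8 TPM in KO day 5 macrophage libraries, against 92.3, 94.5 and 97.8 TPM in KO day 3 libraries, with a log2 change of -0.27 ± 0.17 (adjusted p = 0.19) that passed with the block (0.019) and was 0.069 after scaling. Ccnd1, cyclin D1, rose and had 24.4, 27.1 and 25.6 TPM in KO day 5 macrophage libraries, against 4.74, 3.43 and 3.91 TPM in KO day 3 libraries, a log2 change of 2.42 ± 0.15 (adjusted p = 5.5e-10). Cdkn1a, the inhibitor p21, had 66.7, 64.2 and 70.2 TPM in KO day 5 macrophage libraries, against 60.8, 50.4 and 43.5 TPM in KO day 3 libraries, and its change of 0.38 ± 0.18 (adjusted p = 0.071) passed after scaling (0.0025), with the block (0.026) and without KO day 3 replicate 1 (0.0329).

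Genes of ribosome production fell widely. Of 30 nucleolar genes, 0 rose and 25 fell (median -0.502), with 0 and 9 after scaling. Npm1, nucleophosmin, had 579.7, 533 and 517 TPM in KO day 5 macrophage libraries, against 862, 1099.8 and 990.3 TPM in KO day 3 libraries, a log2 change of -0.85 ± 0.13 (limma, adjusted p = 2.3e-05). Of 75 cytosolic ribosomal protein genes, 0 rose and 73 fell (median -0.61), with 0 and 40 after scaling; Rps4x had 1084, 868 and 869 TPM in KO day 5 macrophage libraries, against 1607, 1886 and 1696 TPM in KO day 3 libraries. Of 40 genes of oxidative phosphorylation, 18 fell as deposited (median -0.22), near the share and the median of all genes, and after scaling 0 fell and 6 rose, beside 23.7% of all genes that rose. Of 23 genes of amino acid supply and tRNA charging, 13 fell, or 5 after scaling, with Ddit4, an inhibitor of mTORC1, falling by 1.31 and Shmt2, a mitochondrial serine enzyme, by 1.03 on the log2 scale. None of the 23 genes rose in either, and after scaling their share of falls was near the 18.9% of all genes.

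Glycolysis and hypoxia genes fell, and the day 5 macrophage libraries differed among themselves. Of 24 genes, 0 rose and 19 fell (median -1.01), with 0 and 9 after scaling, and 0 and 20 without replicate 1 of both groups (median -1.30). Bnip3, a mitophagy receptor induced by hypoxia, had 208, 29.8 and 24.04 TPM in KO day 5 macrophage libraries, against 289, 252 and 212 TPM in KO day 3 libraries, a log2 change of -2.198 ± 0.58 (limma, adjusted p = 0.0036). Pfkl, liver phosphofructokinase, had 102, 36.4 and 32.2 TPM in KO day 5 macrophage libraries, against 132, 136 and 134 TPM in KO day 3 libraries, a log2 change of -1.42 ± 0.30 (adjusted p = 0.00057). Slc16a3, a lactate exporter, had 293, 61.5 and 55.9 TPM in KO day 5 macrophage libraries, against 330.4, 242 and 242 TPM in KO day 3 libraries, and its fall (-1.41 ± 0.47, adjusted p = 0.015) did not pass without KO day 5 macrophage replicate 2 (0.0909) or 3 (0.104), without KO day 3 replicate 1 (0.0513), or after scaling (0.086). In each, replicate 1 kept most of the day 3 level or more while the other day 5 macrophage libraries did not. Of 25 sterol and fatty acid synthesis genes, 0 rose and 9 fell (median -0.38), with 1 and 2 after scaling and 0 and 21 with the block. Their share of falls lay below the 47% of all genes as deposited and below the 18.9% after scaling. Dhcr7, the last enzyme of cholesterol synthesis, had 5.78, 5.48 and 5.56 TPM in KO day 5 macrophage libraries, against 11.3, 14.3 and 12.8 TPM in KO day 3 libraries, a log2 change of -1.06 ± 0.19 (adjusted p = 0.00018). Acat2, of acetyl-CoA metabolism, had 32.1, 31.1 and 31.8 TPM in KO day 5 macrophage libraries, against 48.7, 67.6 and 58.7 TPM in KO day 3 libraries; its change of -0.85 ± 0.30 (adjusted p = 0.022) did not pass after scaling (0.18), without KO day 5 macrophage replicate 2 (0.0523), or without KO day 3 replicate 2 (0.0842) or 3 (0.0526).

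Class II antigen presentation genes fell, while the share of class I genes that fell after scaling was near that of all genes. Of 10 class II genes tested, 0 rose and 8 fell (median -0.92), with 0 and 6 after scaling. H2-Ab1, the class II beta chain, had 33.6, 42.1 and 39.9 TPM in KO day 5 macrophage libraries, against 91.7, 88.8 and 108 TPM in KO day 3 libraries, a log2 change of -1.302 ± 0.26 (limma, adjusted p = 0.00037). Of 15 class I genes, 0 rose and 11 fell, with 1 and 3 after scaling (median -0.089), where 18.9% of all genes fell. Genes of this locus have near copies, so single values such as the -0.89 of H2-K1 are uncertain. Of 39 interferon-stimulated genes, 6 rose and 6 fell, with 13 and 2 after scaling and 10 and 11 with the block. Zbp1, a sensor of Z-form nucleic acid, rose by 0.78. Of 25 p53 target genes, 5 rose and 4 fell, with 12 and 2 after scaling. Mdm2, the ligase that p53 induces against itself, had 46.3, 59.1 and 57.8 TPM in KO day 5 macrophage libraries, against 26.2, 27.4 and 27.5 TPM in KO day 3 libraries, a log2 change of 0.97 ± 0.16 (adjusted p = 4.8e-05), and Phlda3 and Plk2 rose by 0.88 and 1.47. Of 16 TFIID genes, 1 rose and 8 fell, with 3 and 1 after scaling. Taf5, Taf9 and Taf8 fell by 0.58, 0.402 and 0.35 as deposited and did not pass after scaling. Of the 15 feedback genes of cytokine signalling, 2 rose and 7 fell, with 2 and 2 after scaling. For the TFIID and the feedback genes, the share of falls was near the 47% of all genes as deposited. After scaling it was below the 18.9% of all genes. Cish, a STAT5 target, had 48.8, 35.2 and 36.4 TPM in KO day 5 macrophage libraries, against 49.9, 45.5 and 48.4 TPM in KO day 3 libraries, with a log2 change of -0.26 ± 0.23 (adjusted p = 0.34) that passed with the block (0.041) and was 0.068 after scaling.

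**Figure D4:**
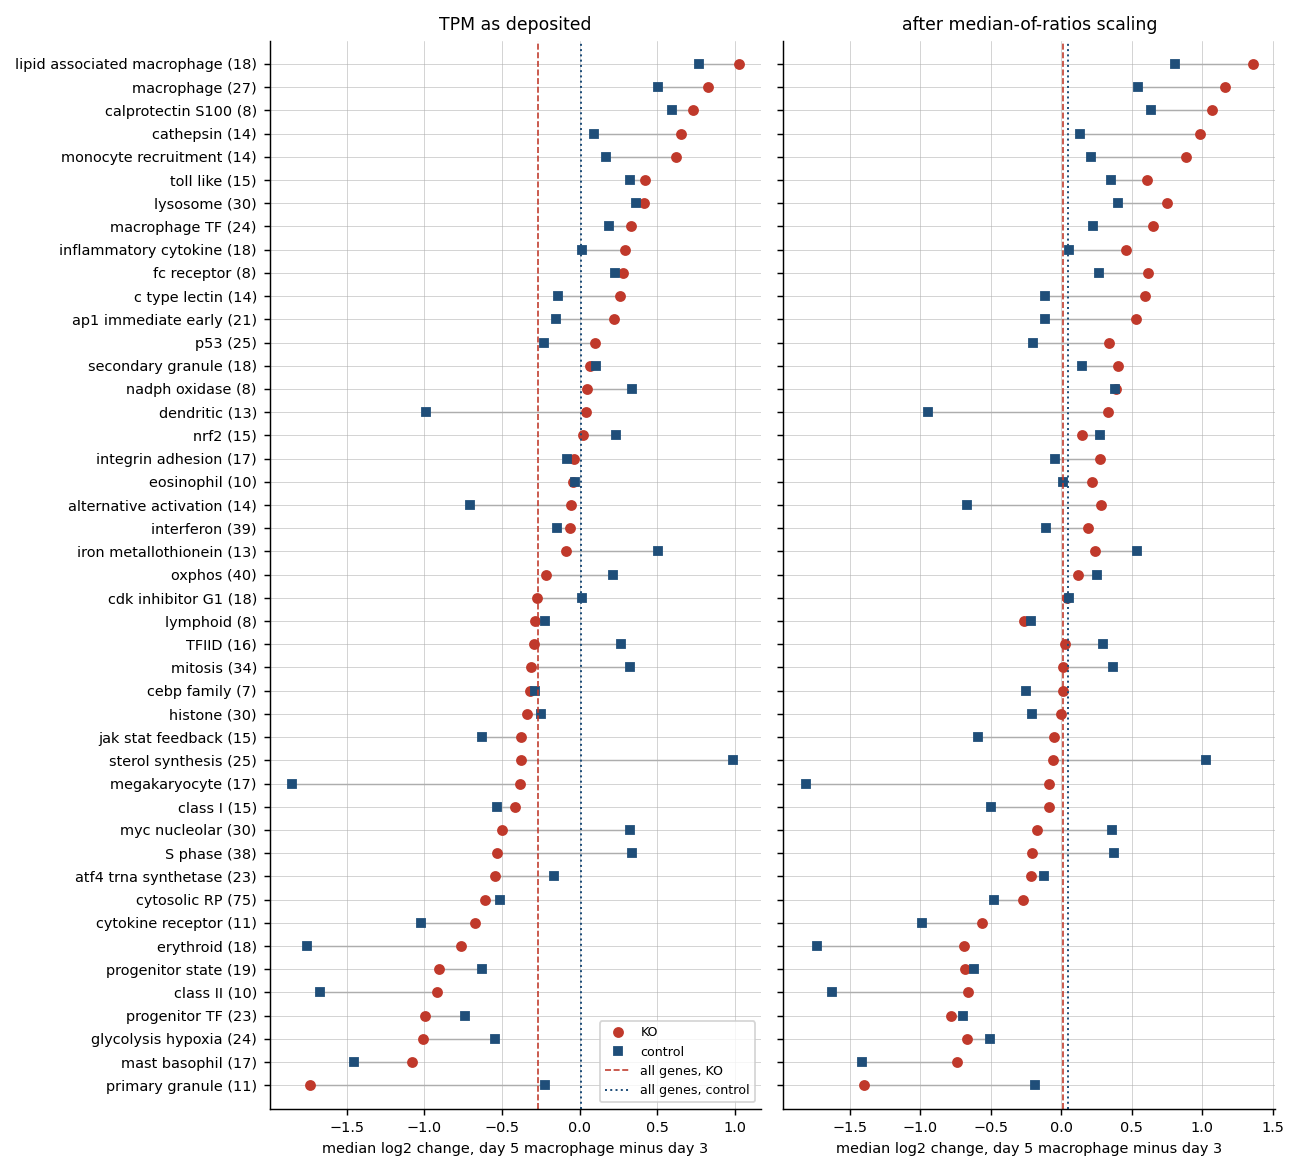
Median log2 change between day 5 macrophage and day 3 (x axis) of each gene list with at least 5 members tested, KO as dots and control as squares, as deposited on the left and after scaling on the right, with lines at the medians of all genes. As deposited, the KO median is -1.74 for primary granule genes and 1.03 for lipid-associated genes, beside -0.27 over all genes.

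The same interval was measured in control cells. In control cells 3061 genes rose (25.6%) and 2946 fell (24.6%), or 3833 (32.1%) and 3016 (25.2%) after scaling. The 2 courses share no library. Genes that rose in both numbered 757 and those that fell in both 2213, while 727 fell in KO and rose in control cells and 28 rose in KO and fell in control cells. After scaling these counts were 1843, 1448, 128 and 112. Tested directly, the KO change lay above the control change in 650 genes (5.44%) and below it in 3493 (29.2%), or in 1489 (12.5%) and 1576 (13.2%) after scaling, where the median difference over all genes was 0.00 in place of -0.24.

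**Figure D5:**
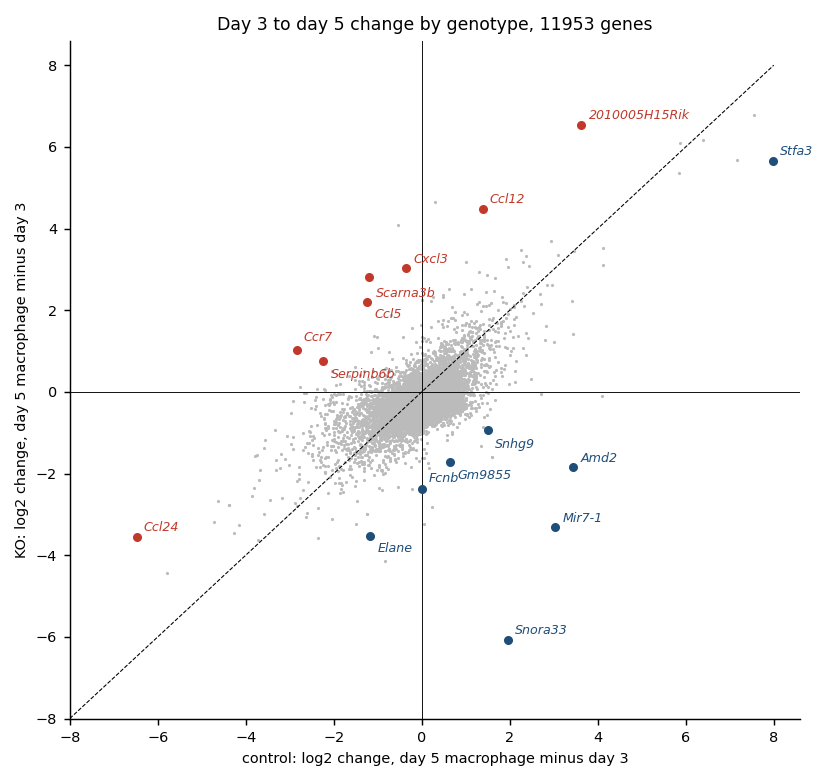
Log2 change of each gene tested in control cells (x axis) and in KO cells (y axis) between day 3 and day 5 macrophage, with named genes marked. Ccr7 and Ccl5 lie where the control change is negative and the KO change positive.

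Ccr7 and Ccl5 rose in KO cells and fell in control cells. Ccr7, a receptor that guides migration to lymph nodes, had 5.21, 7.41 and 8.46 TPM in KO day 5 macrophage libraries, against 3.52, 2.05 and 3.33 TPM in KO day 3 libraries, and 3, 3.87 and 3.02 TPM in control day 5 macrophage libraries against 18.98, 35.1 and 38.9 TPM in control day 3 libraries. Its changes were 1.02 ± 0.27 in KO and -2.84 ± 0.27 in control cells, a difference of 3.86 ± 0.38 (limma, adjusted p = 1.5e-06). Csf1r, whose KO change did not pass as deposited, fell in control cells and had 30.03, 30.6 and 32.9 TPM in control day 5 macrophage libraries against 74.5, 62 and 64.2 TPM in control day 3 libraries, a difference of changes of 1.33 ± 0.16 (adjusted p = 1.1e-05). Ccl5 had 3.42, 6.62 and 4.44 TPM in KO day 5 macrophage libraries, against 0.62, 0.16 and 0 TPM in KO day 3 libraries, and 1.96, 1.39 and 1.91 TPM in control day 5 macrophage libraries against 4.68, 5.16 and 6.71 TPM in control day 3 libraries. The differences of Ccl5 and of Cxcl3, whose control change did not pass, were 3.44 ± 0.62 and 3.395 ± 0.55. Ccl24 fell in both genotypes and less in KO cells (difference 2.94 ± 0.70), where control day 5 macrophage libraries had 4.95, 3.25 and 2.9 TPM.

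Msr1 and Ctsl rose in both genotypes, from a lower start in KO cells. Msr1 had 104, 98.5 and 97.3 TPM in control day 5 macrophage libraries against 20.9, 17.98 and 21.2 TPM in control day 3 libraries, and the KO change was larger by 1.21 ± 0.29 (limma, adjusted p = 0.0035), or 0.31 with adjusted p = 0.381 when 5 TPM was added before the log in place of 1. Every KO day 5 macrophage value of Msr1 lay between the control day 3 values and the control day 5 macrophage values. Ctsl, at 1671, 1012 and 989 TPM in control day 5 macrophage and 676, 557 and 596 TPM in control day 3 libraries, had a difference of 1.44 ± 0.30, and Lgmn, whose control change did not pass, one of 1.81 ± 0.35. Of the 27 macrophage genes the KO change was higher than the control change in 10 and lower in 3, or 14 and 3 after scaling. Fcgr1 was the opposite, with 22.9, 15.2 and 15.8 TPM in control day 5 macrophage and 1.79, 1.52 and 1.71 TPM in control day 3 libraries, a difference of -1.54 ± 0.25 (adjusted p = 0.00021).

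In S phase, mitosis, nucleolar and sterol synthesis genes the KO change as deposited mostly lay below the control change. Summed over each list, every KO day 3 library lay above every control day 3 library. Mean sums at day 3 were 2947 TPM in KO and 1817 TPM in control cells for S phase. They were 2363 and 1885 TPM for mitosis, 2423 and 1721 TPM for nucleolar, and 1605 and 812.9 TPM for sterol genes. At day 5 macrophage every KO sum was below every control sum, except for sterol genes, where they overlapped. Of 38 S phase genes, 23 rose and 0 fell in control cells, and the KO change was lower in 37 and higher in 0, or 31 and 0 after scaling. Of 34 mitosis genes the KO change was lower than the control change in 27, or 9 after scaling, and of 30 nucleolar genes in 27, or 23. Cytosolic ribosomal protein genes did not follow: of 75, the KO change was lower in 3 and higher in 0, or 2 and 2 after scaling. Of 23 genes of amino acid supply and tRNA charging it was lower in 4, or 0 after scaling. Of 25 sterol genes, 19 rose in control cells (median 0.99), and the KO change was lower in 23, or 17 after scaling. Acat2 had 11.8, 40.4 and 38.4 TPM in control day 5 macrophage and 6.32, 11.9 and 11.1 TPM in control day 3 libraries, a difference of -2.25 ± 0.42 (limma, adjusted p = 0.00058). The mitotic checkpoint gene Mad2l1 had a difference of -1.12 ± 0.14. Megakaryocyte genes were the reverse: 17 of 17 fell in control cells, and the KO change lay above in 13, or 14 after scaling. Their summed level was 542 to 936 TPM in control day 5 macrophage libraries and 1531 to 2627 TPM in control day 3 libraries. In KO cells it was 324 to 776 TPM at day 5 macrophage and 320 to 683 TPM at day 3, so it began lower than in control cells.

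Against KO cells in granulocyte cytokines at the same day, the KO day 5 macrophage libraries were higher in 521 genes (4.4%) and lower in 1768 (14.9%) of 11835 tested, or 1384 (11.7%) and 953 (8.05%) after scaling. With the replicate number as a block, on the same assumption of pairing, the counts were 1111 and 4674. This comparison shares the KO day 5 macrophage libraries with the one above. Of 18 lipid-associated genes, 7 were higher and 0 lower, with 11 and 0 after scaling, and of 30 lysosome genes 10 were higher and 3 lower, with 17 and 1 after scaling. Msr1 had 23.4, 36.7 and 33.4 TPM at KO day 5 macrophage and 5.99, 3.93 and 4.49 TPM at KO day 5 granulocyte, a log2 difference of 2.46 ± 0.14 (limma, adjusted p = 1.5e-09). Ccl2 had 1026, 1484 and 1412 TPM at KO day 5 macrophage and 380.2, 294 and 289 TPM at KO day 5 granulocyte, a difference of 2.01 ± 0.16 (adjusted p = 6.0e-08). Irf8 had 18.6, 23.8 and 19.7 TPM at KO day 5 macrophage and 9.56, 8.52 and 8.18 TPM at KO day 5 granulocyte, a difference of 1.15 ± 0.11 (adjusted p = 5.0e-07). In each of these the 2 cultures did not overlap. Adgre1 did not pass, with 44.8, 44.5 and 46.6 TPM at KO day 5 macrophage and 45.8, 39.99 and 41.9 TPM at KO day 5 granulocyte, nor did Csf1r (difference -0.095 ± 0.10, adjusted p = 0.54).

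Progenitor and mast cell genes were lower in the macrophage cytokines. Of 23 progenitor transcription factors tested, 16 were lower and 0 higher at KO day 5 macrophage than at KO day 5 granulocyte, and 14 and 0 after scaling. Of 18 mast cell and basophil genes, 13 were lower and 0 higher, and 11 and 0 after scaling. Gata2 had 6.61, 5.79 and 6.65 TPM at KO day 5 macrophage and 14.2, 24.8 and 31.4 TPM at KO day 5 granulocyte, a log2 difference of -1.67 ± 0.23 (limma, adjusted p = 2.5e-05). Il4 had 4.28, 3.89 and 5.98 TPM at KO day 5 macrophage and 20.9, 26.6 and 33.5 TPM at KO day 5 granulocyte, a difference of -2.29 ± 0.27. Car2 and Serpina3g, both among the largest falls from day 3, were lower, with log2 differences of -3.58 ± 0.26 and -2.96 ± 0.21. The granulocyte cultures still held SCF and IL-3 on this day, so the cytokines added and those withdrawn cannot be told apart in this comparison.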

How the data were processed

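RNA was extracted from cultured mouse cells and libraries were made with a stranded kit, per the labels' protocols. The submitters' processing notes name RSEM, DESeq2 version 1.38.3 and the mm10 build; the aligner, the annotation and the version of RSEM are not given in the sources used here. The authors deposited TPM per gene symbol, in 1 table for the macrophage course and 1 for the granulocyte course, with no counts, so depth is unknown and no count test was possible. The 24411 symbols were filtered to those with at least 1 TPM in at least 3 of the 24 macrophage-table libraries, which left 11953 genes. The model was limma 3.58.1 in R 4.3.3 on log2(TPM + 1), with 1 coefficient per group, a variance trend and Benjamini-Hochberg adjustment over all genes tested at 0.05. Contrasts were KO day 5 macrophage against KO day 3, the same in control cells, their difference, and, in a fit of the day 0, 3 and 5 libraries of both tables (11835 genes), KO day 5 macrophage against KO day 5 granulocyte. Scaling means dividing each library by its median ratio to the geometric mean library (factors 0.809 to 1.15).

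Replicate numbers come from the labels. Deviations from the group means of same-numbered libraries correlated at 0.332, 0.249 and 0.216 between KO day 5 macrophage and KO day 3. Between KO day 5 macrophage and KO day 5 granulocyte they correlated at 0.587, 0.305 and 0.405. Differently numbered libraries reached 0.147 and 0.294 in these comparisons, both between replicates 2 and 3. The numbers were taken to pair those libraries, but replicates 2 and 3 are told apart only weakly, so the block is an alternative to the main fit. No 2 libraries held identical values. Named genes are Taf1, the 10 largest rises and 10 largest falls of the KO course with at least 5 TPM and groups that did not overlap, the 8 largest differences from the control change in each direction, up to 4 members of each of 46 gene lists, and 24 regulators and markers; any other gene was chosen after its values were seen. A few genes that this rule names are not reported here. The members and the lists were chosen with earlier results of these data known. Of 898 list symbols, 5 were not matched. Promoter sequences and gene names are from RefSeq (GRCm38.p6), matched by symbol or synonym. The test was checked on simulated data, and the settings and outcome of that check are not given here.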

Additional observations from a re-analysis of the deposited data

Results flagged for a closer look

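The change between day 3 and day 5 macrophage differed between KO and control cells, by the interaction test of limma, in 650 genes in which the KO change lay above the control change and in 3493 in which it lay below. The genes below were marked for this reason, each with the KO change minus the control change on the log2(TPM + 1) scale.

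Among the largest positive differences, those of genes that rose in KO and fell in control cells were 3.86 for Ccr7, 3.44 for Ccl5 and 2.98 for Serpinb6b, a serpin. Serpinb6b had 1.94, 2.66 and 2.61 TPM in KO day 5 macrophage libraries, against 0.86, 1.1 and 1.11 TPM in KO day 3 libraries, and 4.89, 4.31 and 4.48 TPM in control day 5 macrophage against 17.7, 27.2 and 32.97 TPM in control day 3 libraries. Cxcl3 differed by 3.40, Ccl12 by 3.10, Ccl24 by 2.94 and the stefin gene 2010005H15Rik by 2.91. Csf1r differed by 1.33 and had a lower level in every KO than in every control day 3 library. The lysosomal and surface genes Lgmn, Ctsl and Msr1 differed by 1.81, 1.44 and 1.21. S100a6, a calcium-binding protein, had 3423, 3435 and 3386 TPM in KO day 5 macrophage libraries, against 1233, 785 and 718 TPM in KO day 3 libraries, and 1428, 2057 and 1944 TPM in control day 5 macrophage against 1339, 949 and 925 TPM in control day 3 libraries, a difference of 1.19.

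Genes that fell in both genotypes and less in KO cells include Hbb-bt, which differed by 1.63, Socs1, a feedback inhibitor of cytokine signalling, by 1.27, and H2-Ab1, by 1.17. Hbb-bt had 1.79, 1.46 and 1.22 TPM in KO day 5 macrophage against 17.5, 14.7 and 15.3 TPM in KO day 3 libraries, and 3.15, 1.73 and 1.69 TPM in control day 5 macrophage against 54.3, 67.7 and 72.7 TPM in control day 3 libraries. Cdkn1a differed by 0.87, with 66.7, 64.2 and 70.2 TPM in KO day 5 macrophage libraries, against 60.8, 50.4 and 43.5 TPM in KO day 3 libraries, and 61.7, 32.8 and 41.9 TPM in control day 5 macrophage against 73.6, 56.5 and 56.7 TPM in control day 3 libraries.

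Negative differences of biosynthesis and mitosis genes were -2.25 for Acat2, -1.64 for Dhcr7 and -1.12 for Mad2l1, and Taf1 itself differed by -0.82. Snhg9, a small nucleolar RNA host gene, had 23.4, 29.6 and 16.1 TPM in KO day 5 macrophage libraries, against 37.6, 56.1 and 39.8 TPM in KO day 3 libraries, and 17.8, 21.1 and 16.8 TPM in control day 5 macrophage against 5.93, 3.96 and 8.44 TPM in control day 3 libraries, a difference of -2.44. Fcgr1 rose in both genotypes and less in KO cells, a difference of -1.54. Ctsg differed by -2.15, with 852, 573 and 503 TPM in control day 5 macrophage against 495, 907 and 873 TPM in control day 3 libraries. Elane differed by -2.35, Fcnb by -2.38, the pseudogene Gm9855 by -2.38 and Stfa3 by -2.32, and none of these 4 passed after scaling (adjusted p between 0.0725 and 0.11).

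These 4 also depended on single libraries. Elane did not pass without KO day 5 macrophage replicate 2 (adjusted p = 0.0593) or 3 (0.0565), KO day 3 replicate 2 (0.0535) or 3 (0.0531), control day 5 macrophage replicate 2 (0.0501) or 3 (0.0616), or control day 3 replicate 1 (0.0831). Fcnb passed without KO day 3 replicate 1 or control day 5 macrophage replicate 1, and without any other library its adjusted p lay between 0.0551 and 0.117. Gm9855 did not pass without KO day 5 macrophage replicate 1 (0.113), KO day 3 replicate 2 (0.0985) or 3 (0.0749), control day 5 macrophage replicate 2 (0.0615) or 3 (0.083), or control day 3 replicate 1 (0.0642), 2 (0.0684) or 3 (0.0556). Stfa3 did not pass without KO day 5 macrophage replicate 1 (0.0506), control day 5 macrophage replicate 2 (0.0664) or 3 (0.0727), or control day 3 replicate 1 (0.0595).

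Short or repeated transcripts gave some of the most extreme differences, on values that varied widely within a group. Snora33 differed by -8.02 and did not pass without control day 5 macrophage replicate 2 (-6.06, adjusted p = 0.0676), the sole control library with a value. Mir7-1 differed by -6.35, with 0, 38.3 and 24.2 TPM in KO day 3 libraries while all KO day 5 macrophage libraries are listed at 0, and did not pass without KO day 3 replicate 2 (-5.36, adjusted p = 0.0581). Amd2, a near copy of Amd1, differed by -5.28, with 2.76, 0.18 and 1.85 TPM in KO day 5 macrophage libraries, against 0.38, 6.78 and 52.8 TPM in KO day 3 libraries, which overlap. Each difference here also includes the change in control cells. For Mir7-1, Amd2 and Scarna3b the control values are not given, and the KO values shown make up only a part of the difference. Scarna3b differed by 4.01, with 13.4, 19.5 and 7.64 TPM in KO day 5 macrophage libraries, against 0, 6.39 and 0 TPM in KO day 3 libraries, and did not pass without replicate 1 of every group (3.08, adjusted p = 0.144).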

How the results depend on the processing

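In the KO course, scaling gave 2832 genes higher and 2254 lower. Leaving out the abundant groups gave 1415 higher and 5003 lower. The replicate block with scaling gave 3407 and 2984, and leaving out the abundant groups and the stefin genes 1693 and 3990. The last 2 of these, and leaving out replicate 1, were chosen after seeing the data. The replicate block alone gave 1447 and 6806. Leaving out 1 library at a time gave 852 to 1061 higher and 4318 to 5662 lower. In control cells the replicate block gave 1911 lower. The control numbers were not taken to pair the libraries (same-numbered correlations 0.295, 0.244 and 0.0429). Control day 5 macrophage replicate 3 correlated at 0.305 with control day 3 replicate 2. Leaving out 1 control library gave 2353 to 3064 higher and 2261 to 3516 lower. The difference between the courses had 999 genes higher with no filter on low values, 1015 without the abundant and stefin genes and 986 without replicate 1. It had 1489 higher and 1576 lower after scaling, 1529 and 1534 with block and scaling, and, without 1 library, 486 to 1135 higher (1135 without control day 5 macrophage replicate 1) and 2539 to 3772 lower. The block in this difference rests on the control numbers as well, which were not taken to pair the libraries. KO day 5 macrophage against KO day 5 granulocyte gave 1384 and 953 after scaling and 1111 and 4674 with the block; without 1 library 332 to 525 were higher (332 without granulocyte replicate 2) and 965 to 1552 lower (979 and 980 without macrophage replicates 2 and 3, 1009 and 965 without granulocyte replicates 2 and 3). Of 198 genes followed in the KO course, scaling kept the call and direction of 164, lost the call of 27, added that of 4 and turned 3 that had not passed: Ly6c2 (0.0056), Mki67 (0.069) and Cish (0.068), which turned likewise with block and scaling. Csf2rb ranged between -0.021, without KO day 5 macrophage replicate 3, and 0.21, without replicate 1. The cause of these shifts was not tested. TPM without counts leave the depth behind low values unknown.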
